A study of Mus musculus with 4 samples.

Results

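The elastic fibre genes *Eln*, *Fbn1*, *Fbn2*, *Fbln1*, *Fbln2*, *Fbln5*, *Mfap2*, *Mfap4*, *Mfap5* and *Emilin1* were taken by symbol from an RNA-seq matrix of tail tip fibroblasts (TTF). All 10 symbols were among the 23924 genes of the matrix. The TTF came from male mice of the C57BL/6J-TgBAC8-2087 line: hemizygous Tg2087/+ animals (TG), which carry the *Xic* transgene TgBAC8 with *Xist* in an autosome, and their wildtype +/+ littermates (WT). The cells of both genotypes carry the large T antigen of SV40, which immortalized them, and were tetraploid. Each genotype was sequenced in 2 libraries, all from 1 transgenic line. The sources used here do not say whether these were different animals or cultures, so the p-values measure only the spread between these libraries, which may be technical. They give no age for the mice.

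Elastic fibres give skin, arteries and lung their recoil. They consist of a core of crosslinked elastin, made from the tropoelastin encoded by *Eln*, and a sheath of microfibrils built from fibrillins (*Fbn1*, *Fbn2*) and the microfibril-associated glycoproteins MAGP-1 (*Mfap2*) and MAGP-2 (*Mfap5*). Fibulins (*Fbln1*, *Fbln2*, *Fbln5*), MFAP4 (*Mfap4*) and EMILIN-1 (*Emilin1*) bind tropoelastin or microfibrils and help the fibre to assemble, and microfibrils also hold latent TGF-beta in the matrix. Fibroblasts and smooth muscle cells are main producers of these proteins.

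The libraries held between 9465712 and 14639946 counted reads, worked out from the steps of the FPKM values (fragments per kilobase of exon, relative to all fragments counted in the library). Reads that were sequenced but not counted are not in these totals. Replicate 1 is given before replicate 2 throughout. *Xist*, the check of the genotypes, was at 0 and 0.108 FPKM in the WT libraries and at 2.31 and 2.28 FPKM in the TG libraries. *Col1a1*, which encodes a chain of type I collagen, lay between 407 and 867 FPKM, and *Vim*, which encodes vimentin, between 2147 and 2547 FPKM. *Lum*, which encodes the fibroblast proteoglycan lumican, was listed at 0 in all 4 libraries. *Dcn*, which encodes decorin, was listed at 0 in both WT libraries and at 0.0429 and 0.878 FPKM in TG 1 and TG 2. The keratinocyte genes *Krt5* and *Krt14* and the immune genes *Ptprc*, *Adgre1* and *Cd3e* were listed at 0 in all 4 libraries.

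In TG cells the microfibril genes *Mfap2* and *Mfap4* fell, to 30.1% and 10.5% of their mean WT level, while *Eln* was close to 0 in every library of either genotype. In bulk samples fewer cells that express a gene and less RNA per cell cannot be told apart. TG was compared with WT by limma on log2(FPKM + 0.5) over the 11524 genes with a mean of at least 0.5 FPKM, with Benjamini-Hochberg adjustment. On this scale a fold change understates the change of low genes. Of the 10 elastic fibre genes 9 passed this filter, and *Eln* did not. With a call set at an adjusted p under 0.01 together with a 2-fold change in either direction, 2 of the 9 were lower in TG (*Mfap2* and *Mfap4*), where 0.469% of all tested genes were. None of the 9 was higher by this rule in limma, where 0.607% of all tested genes were. Members and lists were chosen with earlier results of these data known. The shares called by this rule are thus no independent test of the list. *Xist* itself, the check of the genotypes, missed this rule (log2 fold change 2.34, adjusted p = 0.0112 from limma). *Mfap5* alone rose by at least 2-fold at an unadjusted p under 0.05 from limma, as did 411 of all 11524 tested genes. With limma's voom method on the reads none of the 9 was called higher at an adjusted p under 0.01, where 125 of all 11524 were. *Mfap5* had a log2 fold change of 1.38 there (adjusted p = 0.0217 from voom). The calls of *Mfap2* and *Mfap4* were lost with 1 WT library left out, as were most calls over all tested genes. They held with 1 TG library left out. With 1 library left out the log2 fold change lay between -1.86 and -1.58 for *Mfap2* and between -3.65 and -2.33 for *Mfap4*.

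At an adjusted p under 0.05 and any fold change, a rule added after seeing the data, 4 of the 9 were lower (*Mfap2*, *Mfap4*, *Fbn1* and *Fbln5*; background 1.54%) and 1 was higher (*Mfap5*; background 2.59%). Both TG libraries lay below both WT libraries for 4 genes (background 20.3%) and above them for 3 genes (background 30.2%), so the second count is close to the background. The median log2 fold change of the 9 was 0.16, beside 0.07 for all tested genes. The elastic fibre genes had no common direction: 4 had a negative and 5 a positive fold change.

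**Figure D1:**
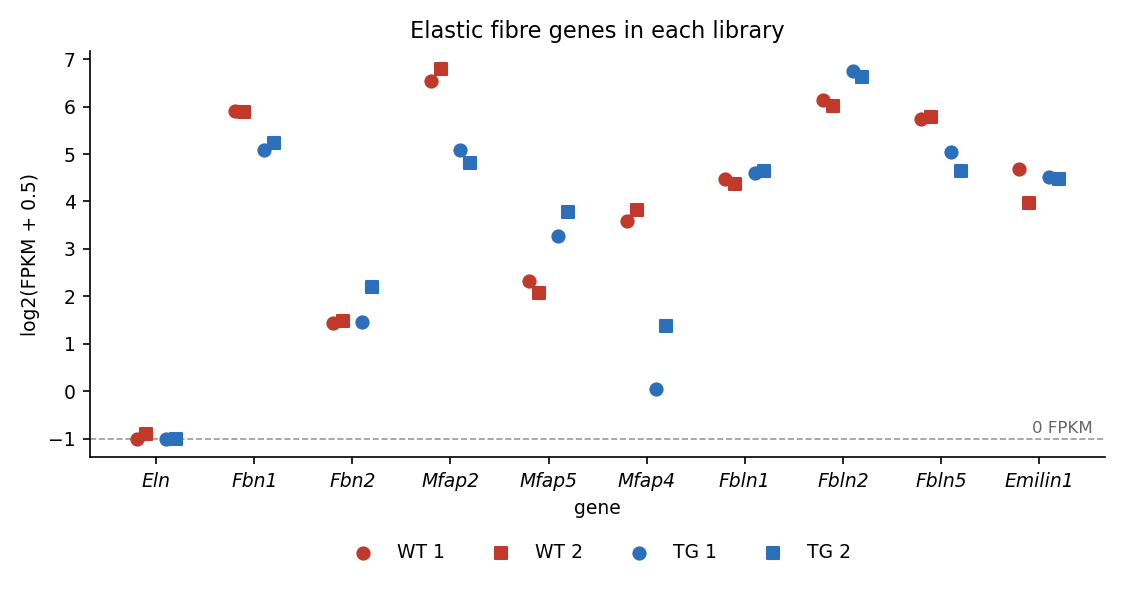
Level of each elastic fibre gene in each library, as log2(FPKM + 0.5), with WT in red, TG in blue, circles for replicate 1 and squares for replicate 2. *Eln* lies at or next to the dashed line that marks 0 FPKM, the TG points of *Mfap2*, *Mfap4*, *Fbn1* and *Fbln5* lie below both WT points, and those of *Mfap5*, *Fbln2* and *Fbln1* lie above them.

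RefSeq promoters of GRCm38.p6, each from 250 bases before to 50 bases after a transcript start, were matched for 6 of the 10 genes with 9 entries (*Fbn1*, *Fbln1*, *Fbln2*, *Fbln5*, *Mfap2* and *Emilin1*). Those of the genes that fell at an adjusted p under 0.05 and had an entry, with both starts of *Mfap2* and the outer start of *Fbln5*, are shown beside that of *Fbln2*, the most abundant member in TG. Capitals mark every match to the motifs searched, and no matches overlapped. The *Mfap2* windows overlap at their ends.
Mfap2, chr4:141010174-141010473, plus strand: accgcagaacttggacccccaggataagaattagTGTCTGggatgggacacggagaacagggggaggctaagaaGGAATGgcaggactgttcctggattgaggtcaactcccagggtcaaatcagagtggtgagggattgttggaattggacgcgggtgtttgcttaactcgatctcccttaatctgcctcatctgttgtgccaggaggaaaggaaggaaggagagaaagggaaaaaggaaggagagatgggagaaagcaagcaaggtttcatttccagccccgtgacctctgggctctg
Mfap2, chr4:141010431-141010730, plus strand: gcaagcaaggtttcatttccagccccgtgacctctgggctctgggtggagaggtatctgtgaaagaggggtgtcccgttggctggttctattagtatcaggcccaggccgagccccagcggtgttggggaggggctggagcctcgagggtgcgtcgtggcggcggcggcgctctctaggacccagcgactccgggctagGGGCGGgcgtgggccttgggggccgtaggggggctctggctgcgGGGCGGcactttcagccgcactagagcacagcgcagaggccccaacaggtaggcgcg
Fbn1, chr2:125506389-125506688, minus strand: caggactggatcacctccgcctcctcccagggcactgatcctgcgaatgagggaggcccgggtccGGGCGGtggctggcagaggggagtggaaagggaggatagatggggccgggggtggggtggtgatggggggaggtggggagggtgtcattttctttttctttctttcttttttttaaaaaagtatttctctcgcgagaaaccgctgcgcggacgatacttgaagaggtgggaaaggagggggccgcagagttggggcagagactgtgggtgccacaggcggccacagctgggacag
Fbln5, chr12:101819070-101819369, minus strand: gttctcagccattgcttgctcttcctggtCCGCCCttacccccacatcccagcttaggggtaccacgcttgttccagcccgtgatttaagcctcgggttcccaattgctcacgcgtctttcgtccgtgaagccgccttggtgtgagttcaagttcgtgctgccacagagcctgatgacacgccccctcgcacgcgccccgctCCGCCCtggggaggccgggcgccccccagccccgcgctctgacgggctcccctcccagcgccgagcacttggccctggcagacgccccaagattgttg
Fbln2, chr6:91212514-91212813, plus strand: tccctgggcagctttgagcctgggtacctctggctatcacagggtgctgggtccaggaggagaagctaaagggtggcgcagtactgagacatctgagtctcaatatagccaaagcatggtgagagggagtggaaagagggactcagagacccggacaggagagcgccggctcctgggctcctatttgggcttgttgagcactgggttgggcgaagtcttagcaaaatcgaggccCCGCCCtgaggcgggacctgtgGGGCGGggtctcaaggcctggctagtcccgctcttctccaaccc

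The motifs were searched on both strands. The GC box of SP1 (GGGCGG) was found in 5 of the 9 entries, one for each of *Fbn1*, *Fbln1*, *Fbln2*, *Fbln5* and *Mfap2*, and in 35.7% of all 32851 RefSeq promoters. It was thus present both in genes that fell in TG and in *Fbln1* and *Fbln2*, whose fold changes were positive. The SMAD-binding element (CAGACA) was found in 5 entries of 4 genes (*Emilin1*, *Fbln1*, *Fbln5* and *Mfap2*), of which the 2 overlapping entries of *Fbln1* share 1 match, and in 21.0% of all promoters. The TEAD motif (GGAATG) was found in the outer *Mfap2* promoter alone and in 14.7% of all promoters. The TATA box (TATAAA, 13.6% of all promoters), the AP-1 motif (TGANTCA, 7.81%), the E2 box (CACCTG, 20.2%) and the CArG box of SRF (1.63%) were not found in these windows. These letters are descriptions of sequence, and binding was not measured.

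*Eln*, on Chr 5 from 134702595 to 134747368, was listed at 0 and 0.0369 FPKM in the WT libraries and 0 and 0 FPKM in the TG libraries. The single value above 0 corresponds to 2 reads, with the gene's length taken from its annotated exons. With a shorter length, 1 read would give the same FPKM, and the interval and the limits that follow would be wider and higher. Its exact Poisson 95% confidence interval ran from 0.00447 to 0.133 FPKM, which, like all intervals given here, covers counting error only. A count of 0 allows up to 3 reads, or 0.0856 FPKM in WT 1, 0.0680 in TG 1 and 0.0733 in TG 2. Since both genotypes lay at or under this limit, no fold change was computed, and a difference in *Eln* was not detectable at this depth. The gene that encodes the fibre's core was thus at the limit of detection in cells in which 6 of the other members exceeded 20 FPKM on average in WT.

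*Fbn1* encodes fibrillin-1, the main structural protein of microfibrils, and lies on Chr 2 from 125300594 to 125506485. It had 59.6 and 58.5 FPKM in the WT libraries and 33.6 and 36.8 FPKM in the TG libraries, from 5499, 8346, 3906 and 3972 reads. The genotypes did not overlap, and the libraries of a genotype lay close together. Its level in TG was 59.7% of that in WT (log2 fold change -0.74, standard error 0.17, adjusted p = 0.0418 from limma), which passed a threshold of 0.05 but was short of a 2-fold change. Over the alternatives with all 4 libraries the adjusted p from limma ranged from 0.00112 with voom to 0.130. It exceeded 0.05 with all genes above 0 tested (0.100), without limma's variance trend (0.130) and with the replicate number fitted (0.109). With 1 library left out the log2 fold change lay between -0.80 and -0.67.

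*Fbn2*, on Chr 18, encodes fibrillin-2, which is best known from developing tissue. It had 2.23 and 2.31 FPKM in the WT libraries and 2.26 and 4.11 FPKM in the TG libraries. TG 1 lay between the WT libraries and TG 2 alone was higher. The ratio of TG 2 to TG 1 was 1.82, with an exact 95% interval from 1.56 to 2.11 on 470 and 279 reads. The difference (log2 fold change 0.37, standard error 0.32, adjusted p = 0.588 from limma) rests on TG 2, since it was -0.0017 without that library.

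The MAGP genes differed in direction, with *Mfap2* lower and *Mfap5* higher in TG. *Mfap2*, which encodes MAGP-1 and lies on Chr 4 from 141010424 to 141015976, had 91.9 and 110 FPKM in the WT libraries and 33.4 and 27.4 FPKM in the TG libraries. Its lowest WT value was above its highest TG value by far more than either pair of libraries differed. It fell by 1.72 on the log2 scale (standard error 0.19, adjusted p = 0.00108 from limma), from 100.9 ± 12.7 FPKM (SD, n = 2) to 30.4 ± 4.24 FPKM (SD, n = 2). Without WT 1 or WT 2 the adjusted p was 0.0308 or 0.0446, above the threshold of 0.01, and it stayed under 0.05 in all alternatives run.

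*Mfap5*, which encodes MAGP-2 and lies on Chr 6 from 122513584 to 122529290, had 4.53 and 3.69 FPKM in the WT libraries and 9.17 and 13.3 FPKM in the TG libraries. The reads behind these values were 58, 73, 148 and 199, so both TG libraries were higher on few reads. Its mean was 2.74 times as high in TG as in WT (log2 fold change 1.33, standard error 0.25, adjusted p = 0.0165 from limma). The rise passed the threshold of 0.05 but not that of 0.01. Over the alternatives with all 4 libraries the adjusted p from limma ranged from 0.0153 to 0.118. It exceeded 0.05 with all genes above 0 tested (0.118), without limma's variance trend (0.0592) and with the replicate number fitted (0.0672). With 1 library left out the log2 fold change lay between 1.08 and 1.59.

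*Mfap4* encodes a fibrinogen-related glycoprotein that binds tropoelastin and fibrillin, and lies on Chr 11 from 61485431 to 61488708. It had 11.5 FPKM in WT 1 and 13.7 in WT 2, but 0.540 in TG 1 and 2.10 in TG 2. The reads were 169 and 311 in WT and 10 and 36 in TG. Both TG values lay far below both WT values, and the TG libraries also differed from each other, with a ratio of TG 2 to TG 1 of 3.88 (exact 95% interval 1.89 to 8.77). *Mfap4* had the largest change of the 9 tested elastic fibre genes (log2 fold change -2.99, standard error 0.38, adjusted p = 0.00227 from limma). The fitted value depends on the pseudocount: a value of 1 gave -2.63 and one of 0.1 gave -3.41. It also depends on the TG libraries, since it was -2.33 without TG 1 and -3.65 without TG 2. Without WT 1 or WT 2 the adjusted p was 0.0590 or 0.111. In GENCODE, exons of *Mapk7*, which encodes a MAP kinase, overlap those of *Mfap4* on the opposite strand, and although the libraries were strand-specific, whether the counting used strand is not stated. *Mapk7* had 18.4 and 22.3 FPKM in the WT libraries and 19.2 and 15.4 FPKM in the TG libraries (adjusted p = 0.590 from limma), and reads in the overlap cannot be assigned to either gene here. Exons of *Eln*, *Fbn1* and *Fbn2* likewise overlap annotated genes on the opposite strand, which the matrix does not list.

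**Figure D2:**
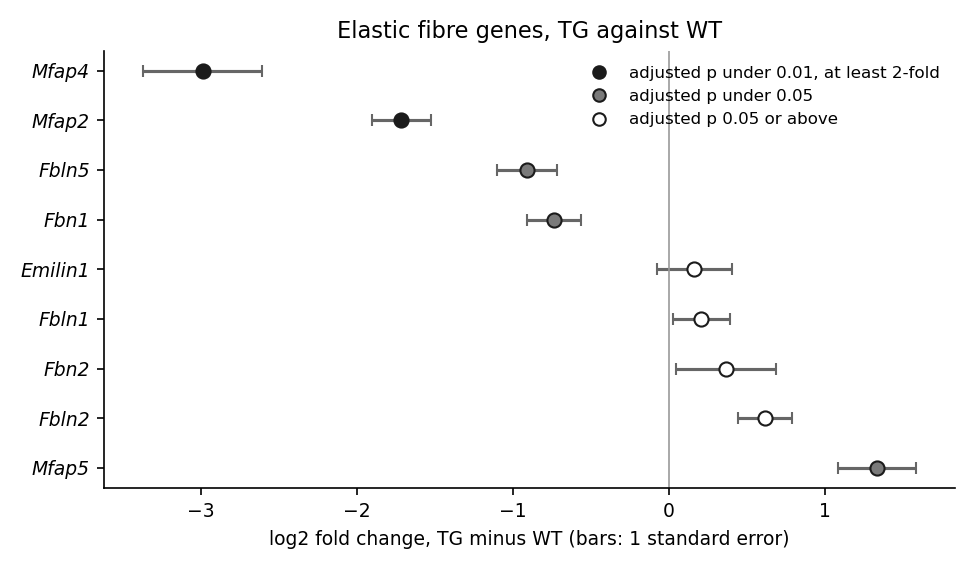
Log2 fold change between TG and WT of the 9 elastic fibre genes that passed the filter, with bars of 1 standard error from limma and fills that mark the adjusted p. *Mfap4* and *Mfap2* lie lowest at -2.99 and -1.72, and *Mfap5* lies highest at 1.33.

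Among the fibulins, *Fbln5* was lower in TG and *Fbln2* was higher in both TG libraries. *Fbln5* encodes fibulin-5, which brings tropoelastin to microfibrils and is needed for elastic fibres to form in mice, and lies on Chr 12 from 101746565 to 101819119. It had 52.6 and 54.5 FPKM in the WT libraries and 32.4 and 24.6 FPKM in the TG libraries. The WT libraries were nearly equal, and the TG libraries lay apart from them and from each other. TG had 53.2% of the WT level (log2 fold change -0.91, standard error 0.19, adjusted p = 0.0277 from limma). Over the alternatives with all 4 libraries the adjusted p from limma ranged from 0.000281 with voom to 0.108. It exceeded 0.05 with all genes above 0 tested (0.108), without limma's variance trend (0.108) and with the replicate number fitted (0.0813). With 1 library left out the log2 fold change lay between -1.10 and -0.72.

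*Fbln2* encodes fibulin-2, which binds fibrillin and tropoelastin, and lies on Chr 6 from 91212460 to 91272540. It had 70.1 and 64.0 FPKM in the WT libraries and 107 and 98.7 FPKM in the TG libraries, so both TG libraries were above both WT libraries. Its mean in TG was 1.54 times that in WT, which did not pass either threshold (log2 fold change 0.62, standard error 0.17, adjusted p = 0.0766 from limma). With voom on the reads the adjusted p was 0.0290.

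*Fbln1* encodes fibulin-1, a protein of elastic fibre cores and basement membranes, and lies on Chr 15 from 85205949 to 85286294. It had 21.8 and 20.2 FPKM in the WT libraries and 23.9 and 24.6 FPKM in the TG libraries. The TG values were all above the WT values, but the difference did not pass the test (log2 fold change 0.21, standard error 0.18, adjusted p = 0.595 from limma).

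*Emilin1* encodes a glycoprotein found where elastin meets the microfibrils and lies on Chr 5 from 30913387 to 30921279. It had 25.3 and 15.2 FPKM in the WT libraries and 22.4 and 21.7 FPKM in the TG libraries. Both TG values lay between the WT values. The WT libraries differed more than the genotypes did, with a ratio of WT 2 to WT 1 of 0.603 (exact 95% interval 0.544 to 0.667). The fitted difference (log2 fold change 0.16, standard error 0.24, adjusted p = 0.766 from limma) became -0.19 without WT 2.

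By level, which is per length and can be set side by side between genes, the order of the members differed between the genotypes. The order within a genotype depends on the lengths behind the FPKM values, for *Fbln2* 4328 bases beside 4786 bases of annotated exons. It was not worked out again with annotated lengths, with which close neighbours may overlap. In WT, *Mfap2* was highest with a mean of 100.9 FPKM, followed by *Fbln2* (67.1), *Fbn1* (59.0) and *Fbln5* (53.5), and the library ranges of these 4 did not overlap. *Fbln1* (21.0) and *Emilin1* (20.2) overlapped in their ranges, and *Mfap4* (12.6), *Mfap5* (4.11), *Fbn2* (2.27) and *Eln* followed separately. In TG, *Fbln2* was highest with a mean of 103 FPKM, ahead of *Fbn1* (35.2), *Mfap2* (30.4) and *Fbln5* (28.5), of which the last 2 overlapped. *Fbln1* (24.3), *Emilin1* (22.0), *Mfap5* (11.2), *Fbn2* (3.19), *Mfap4* (1.32) and *Eln* followed without overlap. *Mfap2* thus went from the first to the third place and *Mfap4* from the seventh to the ninth. Over all 4 libraries, the levels of the 9 tested genes ranged from the 20.7th percentile of all tested genes for *Fbn2* to the 91.1st for *Fbln2*.

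Summed over the 5 microfibril genes (*Fbn1*, *Fbn2*, *Mfap2*, *Mfap4* and *Mfap5*), the level was 170 and 188 FPKM in the WT libraries and 79.0 and 83.7 FPKM in the TG libraries. The sum was lower in both TG libraries. Most of it in WT was *Mfap2* and *Fbn1* (means of 100.9 and 59.0 FPKM), while *Mfap5* and *Fbn2* had higher means in TG. The sums were not among the planned results. Summed over the 3 fibulins, it was 144 and 139 FPKM in the WT libraries and 164 and 148 FPKM in the TG libraries. The fibulin sum was below the microfibril sum in both WT libraries and above it in both TG libraries.

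Ratios of related genes within a library do not depend on its total. The ratio of *Fbn2* to *Fbn1* was 3.74% and 3.95% in the WT libraries but 6.74% and 11.2% in the TG libraries, higher in both TG libraries although the *Fbn2* level of TG 1 was within the WT range. The ratio of *Mfap5* to *Mfap2*, chosen after the values were seen, was 4.93% and 3.36% in the WT libraries but 27.5% and 48.6% in the TG libraries, on average 9.18 times as high in TG. The ratio of *Fbln2* to *Fbln5*, also chosen after the values were seen, was 133% and 118% in the WT libraries but 332% and 400.3% in the TG libraries. For the pairs chosen after the values were seen, TG ratios above WT ratios followed from the choice. Their numerators were higher and their denominators lower in both TG libraries. With 2 libraries against 2, an exact permutation test cannot give a p below 0.333, so the ratios are given without a test.

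**Figure D3:**
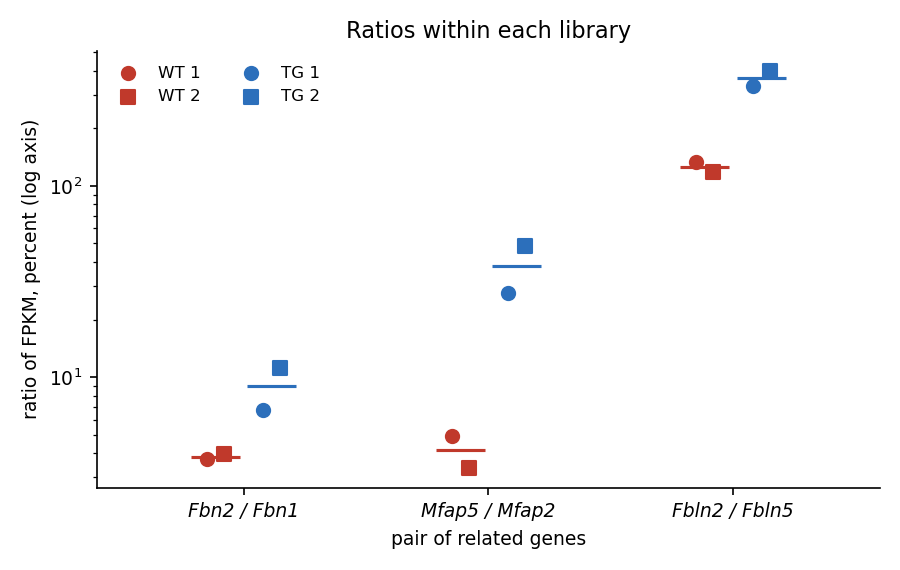
Ratio of FPKM between related elastic fibre genes within each library, in percent on a log axis, with WT in red, TG in blue and short lines at the means of 2 libraries. The TG points lie above the WT points for each pair, and the gap is widest for *Mfap5* to *Mfap2*, with means of 4.14% in WT and 38.0% in TG. The pairs *Mfap5* to *Mfap2* and *Fbln2* to *Fbln5* were chosen after the values were seen, which fixed their separation.

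Of the other genes that help to make, crosslink, bind or degrade elastic fibres, *Loxl2* alone passed the test. Of 29 such genes listed in the matrix, 19 passed the filter on low values. By the same rule for a call, 1 of the 19 was lower in TG (background 0.469%) and 0 were higher in limma (background 0.607%). With voom 0 of the 19 were called higher, where 125 of all 11524 tested genes were. By a 2-fold change at an unadjusted p under 0.05 from limma, 1 (*Emilin2*) was higher, as were 411 of all 11524. At an adjusted p under 0.05 from limma and any fold change, 1 of the 19 was lower (background 1.54%) and 0 were higher (background 2.59%). The median log2 fold change was -0.02, with 10 genes negative and 9 positive. *Loxl2*, a lysyl oxidase that crosslinks collagen and elastin, had 30.3 and 30.9 FPKM in the WT libraries and 14.0 and 12.7 FPKM in the TG libraries (log2 fold change -1.17, standard error 0.19, adjusted p = 0.00751 from limma). It did not overlap between the genotypes. Its adjusted p reached at most 0.110 over the alternatives and exceeded 0.01 without any 1 of the 4 libraries.

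The other lysyl oxidases, which start the crosslinks of tropoelastin, did not pass the test. *Loxl1*, the most abundant of them, had 167 and 121 FPKM in the WT libraries and 166 and 124 FPKM in the TG libraries (log2 fold change 0.02, adjusted p = 0.972 from limma), so it varied more within than between genotypes. *Lox* lay between 80.2 and 93.6 FPKM in all 4 libraries (adjusted p = 0.793 from limma). *Efemp2*, which encodes fibulin-4 and is required for elastic fibres in mice, lay between 80.1 and 101 FPKM (adjusted p = 0.799 from limma). These crosslinking and assembly genes were thus abundant in cells with next to no *Eln* reads.

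The 4 latent TGF-beta binding proteins, which share domains with fibrillins, had negative log2 fold changes from -0.60 for *Ltbp2* to -0.08 for *Ltbp1*, the most abundant over all 4 libraries, and 0 of them passed an adjusted p of 0.05. *Adamtsl3*, the most abundant of the ADAMTS and ADAMTSL genes on the list, had 12.6 and 13.4 FPKM in the WT libraries and 8.61 and 8.25 FPKM in the TG libraries, which did not pass the test (adjusted p = 0.136). *Emilin2*, a relative of *Emilin1*, had 0.210 and 0.322 FPKM in the WT libraries and 1.14 and 2.00 FPKM in the TG libraries (adjusted p = 0.0951). *Mmp2*, which encodes a gelatinase that also cuts elastin, lay between 77.9 and 81.2 FPKM in WT and between 61.1 and 63.8 FPKM in TG (adjusted p = 0.289). *Mmrn1* and *Ctss* were listed at 0 in every library.

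**Figure D4:**
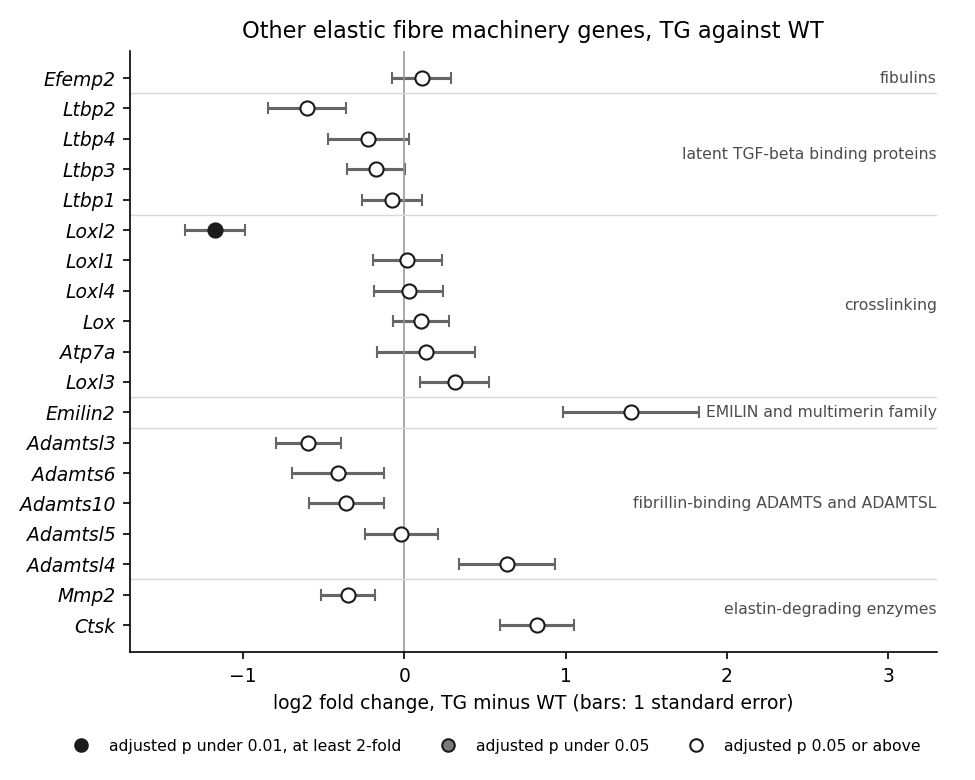
Log2 fold change between TG and WT of the 19 other elastic fibre machinery genes that passed the filter, grouped by role, with bars of 1 standard error from limma and fills that mark the adjusted p. *Loxl2* at -1.17 is the filled point, and the open points had an adjusted p of 0.05 or above.

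Of the smooth muscle genes, *Cnn1* and *Acta2* were lower in TG. The smooth muscle list (*Acta2*, *Myh11*, *Cnn1*, *Tagln*, *Des* and *Smtn*) summed to between 8745 and 9037 FPKM in WT and between 4150 and 4840 FPKM in TG. For 3 of its 4 genes past the filter both TG values were below both WT values (background 20.3%). *Cnn1*, which encodes calponin, fell by 1.78 on the log2 scale (adjusted p = 0.00114 from limma). *Acta2*, which encodes smooth muscle actin, was lower at a threshold of 0.05 (log2 fold change -1.19, adjusted p = 0.0139). *Tagln* (adjusted p = 0.111) and *Smtn* (adjusted p = 0.657) did not pass the test. *Myh11*, the heavy chain that marks mature smooth muscle, was at most 0.376 FPKM and *Des* at most 0.435 FPKM. The fibroblast list of 9 genes summed to between 3920 and 4342 FPKM in WT and between 3677 and 3777 FPKM in TG. Of its 7 genes past the filter, 5 were lower in both TG libraries (background 20.3%). *Pdgfra* and *Vim* were higher in both, which is close to the background of 30.2%. *Pdgfrb* (log2 fold change -0.96, adjusted p = 0.0165 from limma) and *Col1a1* (-0.82, adjusted p = 0.0491) were lower at a threshold of 0.05. *Col1a2*, *Col3a1*, *Thy1*, *Pdgfra* and *Vim* did not pass it. Of the cartilage and bone list, whose sum lay between 9.44 and 11.1 FPKM in WT and between 12.5 and 15.6 FPKM in TG, *Sox9* rose (log2 fold change 1.68, adjusted p = 0.00671 from limma), while *Bglap* was listed at 0 and *Col2a1* was at most 0.302 FPKM. *Runx2*, the most abundant of that list in WT, had 7.14 and 8.14 FPKM in the WT libraries and 4.83 and 5.28 FPKM in the TG libraries, which did not pass the test (log2 fold change -0.55, adjusted p = 0.212 from limma). The Schwann and melanocyte list summed to at most 0.504 FPKM in WT and to between 2.40 and 2.73 FPKM in TG, with *Sox10* at 0. Most of it was *Mitf* (adjusted p = 0.0592 from limma). The skeletal muscle list summed to between 9.75 and 11.1 FPKM in WT and between 5.07 and 5.21 FPKM in TG. With *Myod1*, *Myog* and *Ckm* at 0, this was *Acta1* alone (log2 fold change -0.95, adjusted p = 0.0374 from limma). The sums of the keratinocyte list reached at most 0.718 FPKM and those of the endothelial list at most 0.567 FPKM. The immune list lay between 5.21 and 12.2 FPKM, nearly all of it *Cd68*. The part of these other genes in the changes of the elastic fibre genes was not tested.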

How the data were processed

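RNA-seq of 2 WT and 2 TG libraries was analysed, grouped by the titles of their labels. The authors mapped the read pairs with Rsubread (build mm10), converted gene counts to FPKM and deposited the FPKM values, 1 column per library. The submitters' processing notes name DESeq, which the authors used for their own comparison. The libraries were strand-specific. Versions, annotation and the strand setting of the counting are not given in the sources used here.

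TG was compared with WT by limma 3.58.1 in R 4.3.3 (eBayes, variance trend) on log2(FPKM + 0.5) for genes with a mean of at least 0.5 FPKM. A correction over all 11524 genes used Benjamini-Hochberg. The FPKM values stood in ratios of whole numbers, from which library totals and whole reads were worked out for 15528 of 15530 genes above 0 (relative tolerance 1e-06 in rows given to fewer digits). The length of 938 genes, *Eln*, *Mfap2* and *Fbln2* among them, was set with the help of annotated exons. The reads served for intervals (exact Poisson and Clopper-Pearson, 95%, scipy 1.17.1) and for voom. Gene positions on GRCm38 (mm10) are those of RefSeq, matched by symbol, and overlaps are those of GENCODE.

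The test was tried on simulated counts, drawn independently and with a single dispersion for all genes, which real libraries need not follow. That trial is no support for the calls made here. Members and lists were chosen with earlier results of these data known. All members are named. Of the 29 other machinery genes, those past a threshold and the most abundant of each role are named, and *Lox*, *Ltbp2*, *Mmrn1* and *Ctss* were named after their values were seen. Alternatives were other pseudocounts, filters, scalings, no variance trend, a replicate block, voom, each library left out and an adjusted p under 0.05. A planned comparison of protein sequences was not run.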

Additional observations from a re-analysis of the deposited data

How the results depend on the processing

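Of 117 fold changes of elastic fibre genes under alternatives, 105 kept their direction and their side of the call, 2 changed sign and 10 lost the call. The call is an adjusted p under 0.01 with a 2-fold change, so a loss of 0.05 is not counted here. Among the alternatives with all 4 libraries, *Fbn1*, *Fbln5* and *Mfap5* exceeded 0.05 with all genes above 0 tested, without the variance trend and with the replicate block. For these genes the fits with 1 library left out are given by fold change only. With voom *Fbn1* and *Fbln5* came under 0.01 but stayed short of a 2-fold change. *Fbn2* changed sign without TG 2, with a range over the libraries left out from -0.0017 to 0.74, and *Emilin1* without WT 2, with a range from -0.19 to 0.52. *Mfap4* ranged from -3.65 to -2.33. The 10 were those of *Mfap2* and *Mfap4* with all genes above 0 tested, without the variance trend, with the replicate block, without WT 1 and without WT 2. The number of elastic fibre genes called lower, 2, was 0 in these 5 settings. With 1 library left out, the lone library of its genotype is assumed to vary like the others. Over the libraries left out the number lay between 0 and 2 for the elastic fibre genes and was 0 for the other machinery genes. That of the machinery genes, 1, was also 0 with all genes above 0, without the variance trend and with the replicate block. With the threshold at 0.05 and a 2-fold change, 1 elastic fibre gene was higher, and at any fold change 4 were lower and 1 was higher.

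For all tested genes, 54 were lower and 70 higher. The counts were 1 and 0 with all genes above 0 (where 222 and 429 had a 2-fold change at an unadjusted p under 0.05), 6 and 3 without the variance trend, 8 and 12 with the replicate block, and 151 and 125 with voom. They were 121 and 229 at an adjusted p under 0.05 with a 2-fold change and 178 and 298 at any fold change. Over the libraries left out, they ranged from 1 to 47 and from 0 to 66. Quantile normalization gave 55 and 47. The causes were not tested. The replicate numbers do not pair the libraries by any label. The differences between replicates of WT and of TG had a correlation of -0.0276 across 11524 genes. Upper-quartile scaling and quantile normalization left the numbers of elastic fibre genes without overlap at 4 lower and 3 higher.

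With reads over annotated exonic length, the ratio of *Fbn2* to *Fbn1* in WT was 3.63% instead of 3.84%, and that of *Fbln2* to *Fbln5* was 110% instead of 125%. A difference in *Eln* could not be measured at this depth.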
